A study of Homo sapiens with 13 samples.

Results

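Molecular chaperones of the cytosol and mitochondria, with their J-domain and BAG partners and the heat shock factors, were followed in ribosome profiling of MDA-MB-231 cells. The genes were taken by symbol: HSP and DNAJ genes, the 8 subunits of the chaperonin TRiC (TCP1 and the CCT genes), BAG1 to BAG6, HSF1 and HSF2. HSPA5, HSP90B1, DNAJB9, HSPG2, HSPBAP1 and pseudogenes were left out. The Silvestrol experiment held 90 of these genes among 24875 gene symbols, and 68 of them passed a filter on low values that kept 10507 genes. The INK128 experiment held 72 among 13121 symbols, and 48 of them were among the 7102 genes that passed. Together the experiments held 93 of the genes, and 69 were in both. The symbol BAG6 was only in the INK128 table. The Silvestrol table lists the gene under its older symbol BAT3, with 0 reads in all 9 libraries. Symbols alone also brought in genes that are not chaperones: HSPB11, an intraflagellar transport protein now called IFT25; HSPC159, now LGALSL; the non-coding HSPC072, HSPC157, DNAJC27-AS1 and DNAJC9-AS1; and HSP90Bb, which the reference does not match to a gene. An entry named HSP60, a synonym of HSPD1, was kept beside HSPD1, so this gene counts as 2 of the 68. Genes of the endoplasmic reticulum also stayed in by symbol, among them DNAJB11, DNAJC1, DNAJC3, DNAJC10 and the microsomal HSPA13.

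MDA-MB-231 is a cell line from a human breast cancer, Silvestrol inhibits the RNA helicase eIF4A, and INK128 inhibits the kinase mTOR. In the Silvestrol experiment, ribosome footprints (RFs, the stretches of mRNA that ribosomes protect) were sequenced from untreated cells, after 1 h with DMSO or with Silvestrol at 25 nM, and after 2 h with either, at passage 3 and again at passage 4. Each of these 7 RF libraries was 1 culture, and mRNA was sequenced at 2 h in 1 library per treatment, from passage 3. In the INK128 experiment, RFs and total RNA of cells given DMSO or 200 nM INK128 for 2 h were sequenced in 1 library each. Counted reads ranged from 2652423 in the passage 4 Silvestrol library to 50315607 in the DMSO mRNA library. The labels of 2 libraries disagree among themselves, with 1 h in a field of the passage 3 Silvestrol RF library and "untreated" in a field of the DMSO mRNA library, and both were used as their titles give them. Markers of the line were present, with an mRNA RPKM (reads per kilobase and per 1000000 reads of the library) of 1461 for VIM, 303 for AXL, 286 for CAV1 and 149.5 for CD44, against 0.0853 for CDH1, 4.204 for EPCAM, 25.8 for ERBB2, 0.00242 for PGR and 0 for ESR1 and KRT8.

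Chaperones bind unfolded or partly folded proteins and release them in cycles of ATP binding and hydrolysis. HSP70 proteins take their clients from J-domain proteins, which start ATP hydrolysis, and exchange their nucleotide with the help of HSP110 and BAG proteins; HSP90 completes many signalling proteins, and the ring of TRiC encloses actin, tubulin and others. Mitochondria hold their own HSP70 (HSPA9) and chaperonin (HSPD1 with HSPE1), and HSF1 switches on heat shock genes by binding inverted repeats of a short element in their promoters.

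Many chaperones have near-identical relatives or processed copies in the genome. The authors counted only reads that aligned to a single place. HSPA1A and HSPA1B, the main stress-inducible HSP70 genes, lie beside each other on chromosome 6 of GRCh37, and their coding sequences of 1923 bases differ at 4 positions. Bases 31 to 60 of these coding sequences are shown with those of HSPA8, the constitutive HSP70, to make the likeness visible; capitals mark bases that differ from HSPA1A.
HSPA1A, chr6:31783564-31783593, plus strand: ctgggcaccacctactcctgcgtgggggtg
HSPA1B, chr6:31795758-31795787, plus strand: ctgggcaccacctactcctgcgtgggggtg
HSPA8, chr11:122931973-122932002, minus strand: ctTggcaccacctactcTtgTgtgggTgtT
The stretch was identical in HSPA1A and HSPA1B and differed at 5 bases in HSPA8. Of all 30-base stretches of the coding exons, 4.2% were found once in the genome for HSPA1A and for HSPA1B, 45.1% for HSPA8 and 100% for HSPH1. HSPA1B had no read in the 9 libraries of the Silvestrol table, and HSPA1A had 1 read, in the passage 4 Silvestrol library. HSPA1L and BAG6, also on chromosome 6, had no read there either, although 93.7% and 100% of their stretches were unique. Why these genes lack reads was not tested. In the INK128 table, whose values were made in another way, HSPA1A had an RF FPKM (the same for fragments) of 74.0 with DMSO and HSPA1B one of 82.9. The values of both genes are therefore uncertain. HSPE1, the co-chaperonin of HSPD1, had 13.4% of its stretches unique and no RF read in any of the 7 RF libraries, although 796 and 370 reads were counted for it in the DMSO and Silvestrol mRNA libraries.

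The counted length, reads divided by RPKM, shows the part of a gene that entered its value. It was set against the coding length and scaled to the median of the 35 chaperone genes whose every 30-base stretch was unique, which ranged from 90.6% to 117%. In the 8 genes with under 60% of their stretches unique, the counted length was between 6.31% and 55.0% of that standard. Unique share and counted length did not always go together: CCT7 had 90.7% of its stretches unique and a counted length of 51.6%, and DNAJC19 had 21.5% and 55.0%. The counted length was 6.31% for HSPA8, 7.81% for HSP90AB1, 11.8% for HSPD1 and 25.2% for HSP90AA1. The entry named HSPD1, for the mitochondrial HSP60, held 63 reads in the passage 3 DMSO library, and the entry named HSP60 held 477. In TRiC the counted length was 95.8% for CCT3 and 98.7% for CCT2, but 23.8% for TCP1 and 21.8% for CCT6A. Whether the missing positions differ in footprint density was not tested.

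**Figure D1:**
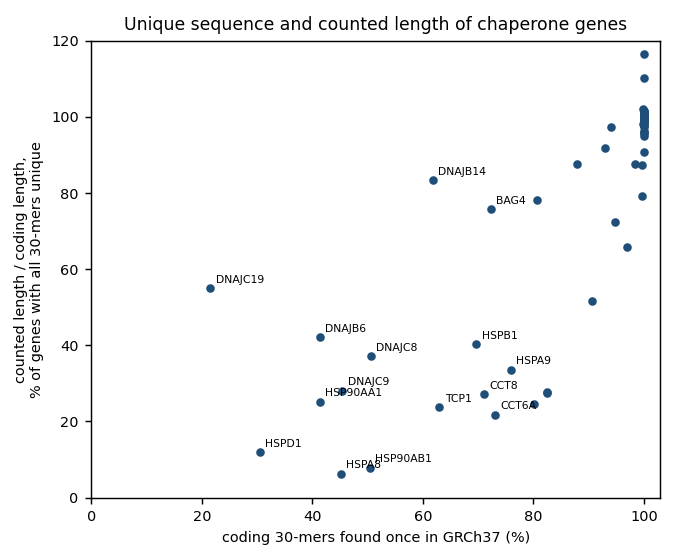
Share of each gene's coding 30-base stretches found once in GRCh37 (x axis, %) and its counted length over coding length in the passage 3 DMSO RF library (y axis, % of the median of fully unique genes), 1 point per chaperone gene that passed the filter. HSPA8 sits lowest at 6.31%, and genes with all stretches unique lie between 90.6% and 117%.

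With DMSO, TRiC and HSPB1 led the footprint levels. In the passage 3 DMSO library the 10 highest RF RPKM values were 778 for CCT3, 644 for CCT4, 634 for CCT7, 630.3 for the small heat shock protein HSPB1, 560 for CCT5, 463 for CCT2, 353 for HSPA9, 287 for CCT6A, 283 for HSP90AB1 and 265 for the HSP110 gene HSPA4. Among these 10 were 6 TRiC subunits, while CCT8 had 224 and TCP1 92.8. At the other end, HSPA2 had 2.05 and DNAJC28 1.12. In the INK128 table, which was normalized separately, the highest RF FPKM with DMSO were 1055 for HSPA8, 999.5 for HSP90AB1 and 527 for HSP90AA1, and HSPD1 had 255. The order of the levels therefore differed between the tables for the genes with little unique sequence.

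The number of chaperones called with Silvestrol depended on whether the passage entered the fit, with 5 of 68 called without it and 37 with it. The calls over all genes rose likewise, to 28.1% lower and 25% higher with the passage. Without the passage, in edgeR's quasi-likelihood test of the 4 RF libraries at 2 h, 2 of 68 chaperone genes had fewer RFs, against 7.73% of all genes tested. More RFs were found in 3 of 68, against 2.22% of all genes. The median log2 RF change of the chaperones in this fit was 0.13, against −0.01 over all genes, with 30 genes below and 38 above 0. The genes that fell were DNAJC13 and HSPH1, and those that rose were HSPA9, DNAJC15 and DNAJC7. A change in every cell and a change in part of the cells cannot be told apart in these bulk libraries.

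DNAJC13, a J-domain protein of endosomes, lies on chromosome 3 of GRCh37 (coding region chr3:132153395-132257123, 55 coding exons). Its RF RPKM was 12.0 in the DMSO and 4.35 in the Silvestrol library of passage 3, and 14.1 and 5.98 in those of passage 4. Both Silvestrol values lay below both DMSO values, and the log2 change was −1.22 (standard error 0.18, adjusted p = 0.026, edgeR). With 2 libraries per group such separation also arises often without any effect. Its share over all genes was not counted, so it adds no support to a call, here or for the genes below. HSPH1, the inducible HSP110 that recharges HSP70 with ATP, lies on chromosome 13 (coding region chr13:31711458-31735719, 18 coding exons). Its RF RPKM was 109 in the DMSO and 61.0 in the Silvestrol library of passage 3, and 117 and 68.9 in those of passage 4. The groups did not overlap, and the log2 change was −0.67 (standard error 0.12, adjusted p = 0.037, edgeR). At 1 h, where there was 1 library per treatment and no test, both genes were also lower, DNAJC13 at 6.86 against 12.2 and HSPH1 at 92.5 against 121.8.

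HSPA9, the mitochondrial HSP70 that pulls proteins in through the inner membrane, lies on chromosome 5 (coding region chr5:137891729-137911007). Its RF RPKM was 353 in the DMSO and 517 in the Silvestrol library of passage 3, and 284 and 360 in those of passage 4. The groups did not overlap, although the passage 4 Silvestrol value was just above the passage 3 DMSO value, and the log2 change was 0.58 (standard error 0.12, adjusted p = 0.042, edgeR). DNAJC15, a J-domain protein of the same import machinery, also lies on chromosome 13 (coding region chr13:43597763-43681381). Its RF RPKM rose from 97.3 to 172 (passage 3) and from 122.1 to 197 (passage 4). The groups did not overlap, and the log2 change was 0.87 (standard error 0.17, adjusted p = 0.042, edgeR). DNAJC7, a J-domain protein that binds HSP70 and HSP90 through tetratricopeptide repeats, lies on chromosome 17 (coding region chr17:40128754-40169434). Its RF RPKM was 117 and 164 in passage 3 and 112 and 151 in passage 4, with a log2 change of 0.60 (standard error 0.13, adjusted p = 0.049, edgeR). At 1 h, HSPA9 had 511 with Silvestrol against 359 with DMSO, DNAJC15 had 133 against 93.5, and DNAJC7 had 143 against 121.

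The mRNA of these 5 genes was measured once per treatment. It was higher with Silvestrol for all 5, at 9.95 against 7.35 RPKM for DNAJC13, 37.6 against 22.7 for HSPH1, 96.8 against 80.8 for HSPA9, 16.7 against 14.7 for DNAJC15 and 42.8 against 33.4 for DNAJC7. For DNAJC13 and HSPH1, RFs and mRNA thus moved in opposite directions. None of the 5 calls held in every setting. With 1 library left out, an arm has a single library that is assumed to vary like the other arm's pair. The share of all genes called in these fits was not counted, so their calls show nothing particular to chaperones. Without the passage 3 Silvestrol library edgeR called none of the 68 genes (3 lower and 6 higher at an unadjusted p under 0.05), nor did it without that of passage 4 (4 and 8), while the log2 changes of the 5 genes without either Silvestrol library were −1.06 and −1.41 for DNAJC13, −0.65 and −0.72 for HSPH1, 0.55 and 0.58 for HSPA9, 0.94 and 0.76 for DNAJC15 and 0.61 and 0.56 for DNAJC7. With the DMSO library of passage 3 left out edgeR called DNAJC13, DNAJB11 and DNAJC30, and without that of passage 4 it called DNAJC13, DNAJC15, DNAJB12, HSPBP1 and HSPD1. The log2 change of HSPA9 was 0.61 with an adjusted p of 0.145 with an offset for counted length (edgeR).

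**Figure D2:**
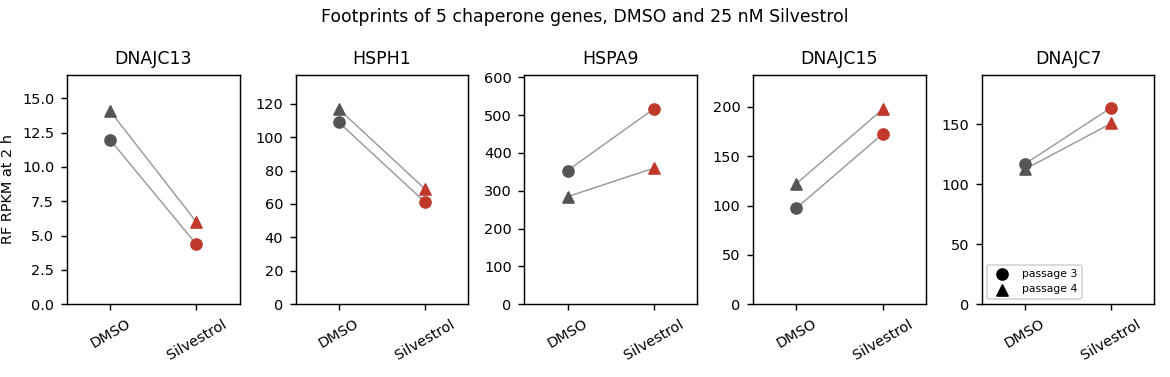
RF RPKM at 2 h (y axis, from 0) with DMSO (grey) and 25 nM Silvestrol (red) for the 5 chaperone genes called by edgeR; circles are passage 3 and triangles passage 4, 1 library each, and lines join the libraries of a passage. DNAJC13 fell from 12.0 to 4.35 and from 14.1 to 5.98, and DNAJC15 rose from 97.3 to 172 and from 122.1 to 197.

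Passages 3 and 4 were each split between DMSO and Silvestrol, and with the passage as a block many more genes passed. The blocked fit called fewer RFs in 11 of 68 chaperones, against 28.1% of all genes, and more RFs in 26 of 68, against 25% of all genes. All 5 genes above were among them. With a term for passage, 4 libraries leave little information on a gene's own spread, which edgeR largely borrows from other genes. The small p-values of this fit therefore do not measure the spread between cultures of a single gene. Among its calls were HSPD1, CCT8 and HSPA8, whose RPKM changed sign between passages. By role, the blocked calls were as follows. HSP70 genes had 0 lower and 3 higher calls of 5, HSP110 genes 2 lower and 0 higher of 3, the mitochondrial group (HSPA9, HSPD1 and HSP60 with DNAJA3, DNAJC11, DNAJC15 and DNAJC19) 0 and 4 of 7, BAG genes with HSPBP1 2 and 2 of 6, and the other J-domain genes, with the mitochondrial DNAJC30 counted among them, 6 and 9 of 31. TRiC subunits had 0 and 6 of 8, HSP90 genes 0 and 1 of 2, and small heat shock proteins 0 and 1 of 2. The remaining lower call was HSPB11. These fits used counts, which grow with the counted length. With the block and an offset for counted length in each library, an alternative chosen after seeing the data, edgeR called 10 lower and 22 higher of 67, against 27.9% and 24.5% of all genes. CCT8, DNAJB1, HSP90AB1, HSPD1 and BAG2 were then no longer called, CCT7 was called lower, and DNAJB6 could not be fitted. DESeq2, without the passage, called 3 lower and 8 higher, against 10.2% and 5.64% of all genes. On the RPKM scale, 28 of the 67 chaperones measured in both passages (41.8%) were lower in both, against 50% of all genes, and 24 (35.8%) were higher in both, against 30.5%. On the CPM scale (reads per 1000000 counted reads, not divided by length) 25 were lower in both (37.3%, against 45.0% of all genes) and 30 higher in both (44.8%, against 36.8%).

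The subunits of TRiC had a median edgeR log2 RF change of 0.41, against −0.01 over all genes. Not all changed in the same direction, with a range of −0.12 to 0.50. None of the 8 passed edgeR's test without the block, 2 had an unadjusted p under 0.05 (CCT2 and CCT5), and DESeq2 called CCT5. The RF RPKM of CCT3 was 778 in the DMSO and 993 in the Silvestrol library of passage 3, then 596 and 775 in passage 4. CCT2 had 463 and 584 in passage 3 and 428 and 495 in passage 4, and CCT5 had 560 and 678, then 462 and 525. In these 3 subunits the Silvestrol library was higher within each passage, while the passage 4 Silvestrol value lay below the passage 3 DMSO value for CCT3 and CCT5. The edgeR log2 changes were 0.50 (standard error 0.21) for CCT3, 0.40 (0.15) for CCT2 and 0.49 (0.12) for CCT5, with adjusted p-values of 0.18, 0.145 and 0.062. CCT4 and CCT7 were lower within each passage on the RPKM scale. CCT4 went from 644 to 528 and from 604 to 480, and CCT7 from 634 to 512 and from 546 to 393. Their edgeR log2 changes were close to 0, at −0.11 (standard error 0.11) for CCT4 and −0.12 (0.11) for CCT7. CCT6A had 287 and 374 in passage 3 and 234 and 242 in passage 4, CCT8 had 224 and 249, then 227 and 183, and TCP1 had 92.8 and 128, then 80.6 and 79.9. CCT8 and TCP1 therefore changed sign between passages in RPKM. The blocked fit called 6 of the 8 higher, namely CCT2, CCT3, CCT5, CCT6A, CCT8 and TCP1, and 0 lower. It called 25% of all genes higher and 28.1% lower. The RF counted length with Silvestrol in passage 4 was 1.33 times that with DMSO for CCT8, 1.20 for TCP1, 1.16 for CCT6A, 1.14 for CCT7 and 1.13 for CCT5, after scaling each library to its median. With the block and the offset for counted length, CCT8 had a log2 change of 0.09 (standard error 0.11, adjusted p = 0.53, edgeR) and CCT7 one of −0.24 (standard error 0.09, adjusted p = 0.016, edgeR), while CCT2, CCT3, CCT5, CCT6A and TCP1 were still called higher.

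The 3 HSP110 genes were lower in both passages in RPKM, as were 50% of all genes. HSPA4, a constitutive HSP110, fell from 265 to 199 RPKM in passage 3 and from 279 to 210.5 in passage 4. Its groups did not overlap, but its log2 change of −0.28 (standard error 0.11) passed only with the block (adjusted p = 0.15 without and 0.0025 with it, edgeR). HSPA4L went from 49.6 to 41.9 and from 43.4 to 36.6, and passed in neither fit. Its log2 RPKM change of −0.24 in each passage was near the medians of all genes, −0.17 and −0.15. Among HSP70 genes, the RPKM of HSPA8 was 149 and 276 in passage 3 and 322 and 305 in passage 4. In CPM it was higher with Silvestrol within each passage, at 23.8 and 44.8, then 73.4 and 90.5, and its counted length in passage 4 was 1.25 times larger with Silvestrol. Its edgeR standard error of 0.60 exceeded its log2 change of 0.54. With the block it was called, at 0.69 (standard error 0.14, adjusted p = 3.2e-06, edgeR), as were HSPA13 and HSPA14, the other HSP70 genes counted as higher. HSPA13, a microsomal HSP70, had 17.96 and 26.97, then 38.0 and 46.5. HSPA14, the HSP70 of a ribosome-bound complex, had 60.001 and 67.8, then 65.4 and 74.2. HSPA2 and HSPA12A stayed under 3 RPKM in all of the 2 h RF libraries. Of the HSP90 genes, HSP90AA1 had 59.5 and 54.3 in passage 3 and 80.0 and 50.8 in passage 4.

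Beyond HSPA9 and DNAJC15, DNAJA3, a mitochondrial J-domain protein, was higher within each passage, at 51.7 and 68.1 RPKM, then 44.2 and 68.7. Its log2 change of 0.63 (standard error 0.15) passed with the block (adjusted p = 2.7e-07, edgeR) and not without it (adjusted p = 0.061). DNAJC11, a protein of the outer membrane, had 51.3 and 39.98, then 45.3 and 42.7. The HSPD1 entry had 9.03 and 28.2 in passage 3 and 35.1 and 17.5 in passage 4, on 63, 90, 92 and 27 reads. The HSP60 entry of the same gene had 12.8 and 10.0005, then 12.76 and 14.96, on 477, 182, 113 and 56 reads. Each entry changed sign between passages, and in opposite ways. Summed over both, the gene had 20.6 and 22.6 RF CPM in passage 3 and 31.8 and 31.3 in passage 4, log2 changes of 0.13 and −0.02. The call of HSPD1 with the block, and that without the passage 4 DMSO library, come from the HSPD1 entry alone, while the HSP60 entry had an adjusted p of 0.97 with the block (edgeR). DNAJC19, a J-domain protein of the import motor, had 35 and 18 RF reads in passage 3 and 22 and 2 in passage 4. The passage 4 Silvestrol value of DNAJC19 thus rests on 2 reads.

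The other J-domain proteins choose the clients of HSP70. DNAJA2 rose from 186 to 293 and from 198 to 255 RPKM without overlap of the groups, and its log2 change of 0.64 (standard error 0.14) just missed the threshold (adjusted p = 0.052, edgeR). DNAJB11, of the endoplasmic reticulum, fell from 33.8 to 18.2 and from 67.9 to 26.4, with a log2 change of −1.07 (standard error 0.36, adjusted p = 0.12, and 3.5e-10 with the block, edgeR). Called lower with the block were also DNAJB6, whose entry had 0 reads in passage 4, and DNAJC5, DNAJC6 and DNAJC14. DNAJC5, a J-domain protein of secretory vesicles, had 124 and 65.1 RPKM, then 117 and 76.002, and DNAJC6, which uncoats clathrin vesicles, had 13.7 and 7.98, then 12.9 and 8.53. DNAJC14 had 15.8 and 11.8, then 18.2 and 10.7. In these 3 genes both Silvestrol values lay below both DMSO values, a separation that was not counted over all genes. Called higher with the block were DNAJA2, DNAJB1, DNAJB12, DNAJC1, DNAJC7, DNAJC9, DNAJC18, DNAJC21 and DNAJC30. DNAJB12 had 32.9 and 54.9, then 41.8 and 60.4, and DNAJC30 had 30.5 and 46.04, then 21.8 and 46.4. DNAJC18 had 9.39 and 10.7, then 5.47 and 12.7. In these 3 genes both Silvestrol values lay above both DMSO values, again without a count over all genes. DNAJC9 had 26.5 and 42.9, then 27.1 and 27.4, DNAJC21 had 37.4 and 43.2, then 52.4 and 55.3, and DNAJC1 had 10.99 and 17.3, then 21.4 and 23.8. DNAJB1, the partner of HSP70 in the heat shock response, had 189 and 173, then 117 and 109, so its RPKM was lower within each passage although the blocked fit of the counts called it higher (log2 change 0.33, and 0.03 with the offset for counted length). The exchange factor HSPBP1 went from 113 to 56.6 and from 83.3 to 48.1, below both DMSO values, with a log2 change of −0.78 (standard error 0.23, adjusted p = 0.087, and 2.7e-10 with the block, edgeR). BAG2, which restrains the ubiquitin ligase STUB1, had 237 and 167, then 221 and 188. BAG3, which links HSP70 to autophagy, had 142 and 131, then 127 and 136, and BAG1 had 27.3 and 31.5, then 26.1 and 32.7. BAG4 rose from 12.4 to 16.3 and from 10.7 to 21.1 (adjusted p = 0.096, and 4.9e-05 with the block, edgeR), and BAG5 had 42.1 and 37.6, then 38.4 and 44.6. HSPB1 had 630.3 and 719, then 561 and 673, and HSPB8 12.9 and 9.82, then 7.87 and 4.02.

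HSF1, the master factor of the heat shock response, was level in passage 3, at RF RPKM values of 49.1 (DMSO) and 49.3 (Silvestrol), and had 41.0 and 46.5 in passage 4. HSF2 had 18.7 and 20.4, then 18.1 and 18.5. Neither passed edgeR's test in the fit with or without the block. The element GAANNTTCNNGAA, or its reverse complement TTCNNGAANNTTC, was looked for in the 250 bases before each RefSeq gene start of GRCh38.p14. It was found for 6 of the 77 chaperone genes in that table and for 0.557% of all 27305 genes in it. The stretches are shown because they name the chaperones with a perfect triple repeat; capitals mark the element, and coordinates are those of GRCh38.p14.
HSPA8, chr11:123062171-123062200, minus strand: gcgggccccTTCTGGAAGGTTCtaagatag
HSP90AA1, chr14:102087112-102087141, minus strand: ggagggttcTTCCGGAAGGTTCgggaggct
HSP90AB1, chr6:44247822-44247851, plus strand: ctgagattgTTCTGGAAGCTTCtggattct
HSPD1, chr2:197500061-197500090, minus strand: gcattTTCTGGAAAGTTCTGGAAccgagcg
HSPA6, chr1:161524457-161524486, plus strand: gcggaaaggTTCGCGAAAGTTCgcggcggc
DNAJB6, chr7:157336864-157336893, plus strand: aagagccgaGAACCTTCGCGAAggtggggc
The match nearest the start is shown; in HSPD1 a match of each kind overlaps. In HSPH1, DNAJB1 and the TRiC genes these letters were not in the window. The mRNA values of HSPA8, HSP90AA1 and HSPD1 went in different directions, from 607 to 352, from 26.6 to 45.9 and from 27.6 to 36.4 RPKM. HSPA6 was scarce, with 12 and 3 mRNA reads.

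**Figure D3:**
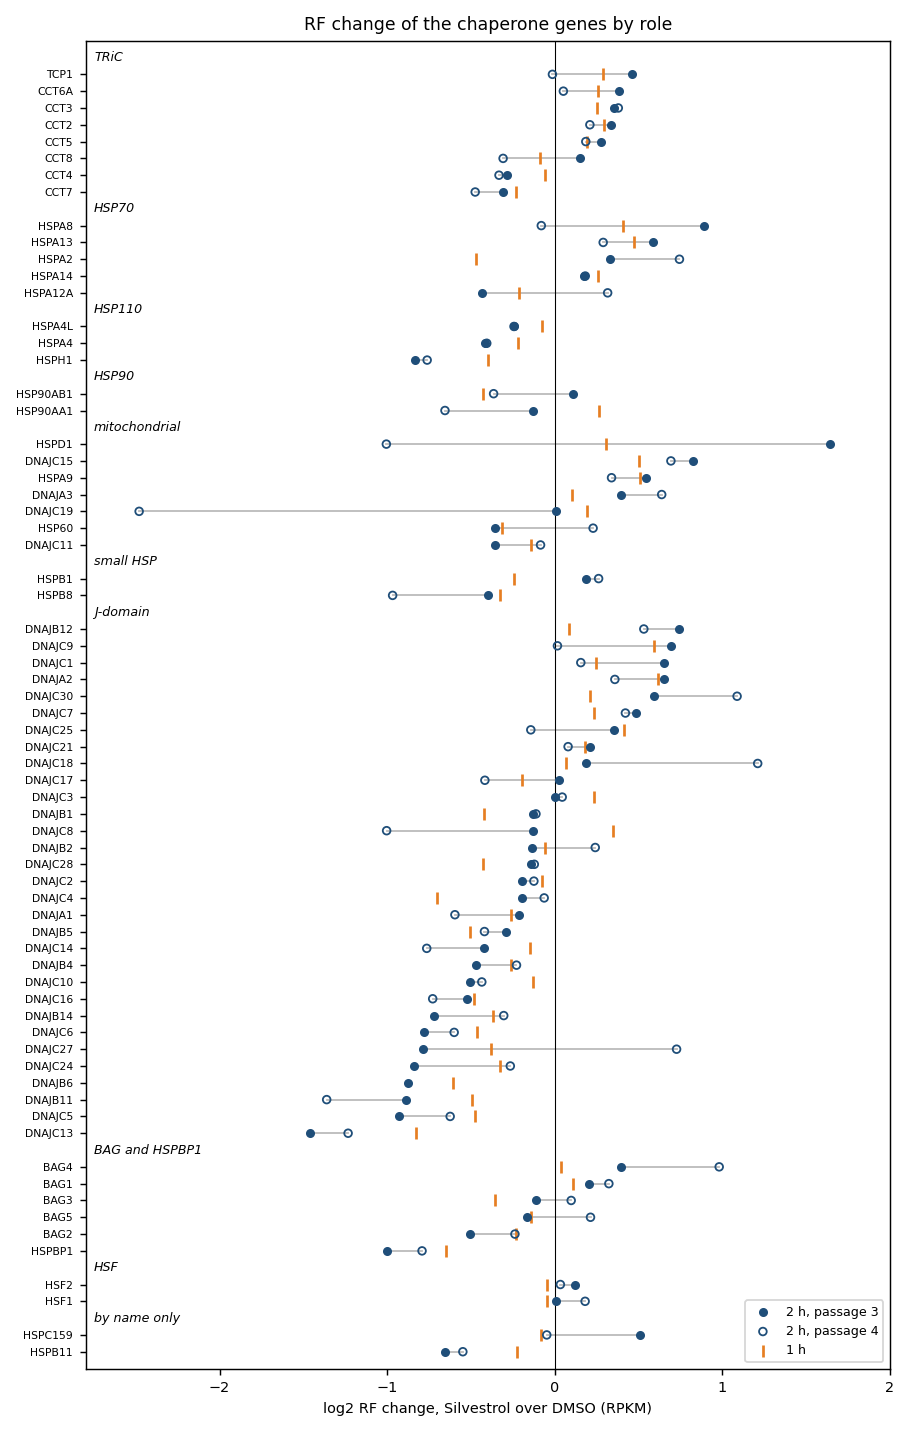
log2 RF change with Silvestrol over DMSO from RPKM (x axis) for the 68 chaperone genes that passed the filter, grouped by role; filled circles are 2 h in passage 3, open circles 2 h in passage 4 and orange ticks 1 h, 1 pair of libraries each. Most genes lie between −1 and 1, DNAJC13 has the lowest passage 3 value, and HSPD1 and DNAJC19 show the widest gaps between passages.

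At 1 h none of the 68 genes had changed 2-fold in either direction, against 8.32% of 10496 genes measured. The median log2 RF change was −0.08 at 1 h, against −0.18 for all genes. At 2 h it was −0.12 in passage 3 and −0.08 in passage 4, against −0.17 and −0.15 for all genes. With CPM in place of RPKM the medians of the chaperones were 0.05, 0.10 and 0.12, and those of all genes −0.05, −0.06 and −0.08. In RPKM, 39 of 68 chaperones were above the median of all genes at 1 h, 40 of 68 in passage 3 and 39 of 67 in passage 4. Untreated cells gave 1 library of passage 3, and chaperones had a median log2 RF ratio of 0.14 in it over the 2 h DMSO library, against 0.04 for all genes. The RF RPKM of HSPA8 was 290 untreated, 197 after 1 h of DMSO and 149 after 2 h, and HSPH1 156, 121.8 and 109. HSP90AA1 had 86.2, 43.3 and 59.5. Only HSPA8 and DNAJA1 were at least 1.5-fold above the 2 h DMSO library of passage 3, 2 of 68 against 1.85% of all genes. Below that library were 19 of the 68. In the passage 4 DMSO library HSPA8 had 322, above its untreated value.

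Translational efficiency (TE, RFs over mRNA) was compared as the log2 change of RF RPKM minus that of mRNA RPKM in passage 3, turned into a z-score over all genes. A z-score below −1.5 was found for 2 of 68 chaperones, against 6.61% of all genes, and one above 1.5 for 3 of 68, against 4.72%. The median z-score was 0.11, and 0.03 over all genes. The lowest were DNAJB11 at −1.66 and DNAJC13 at −1.61, followed by HSP90AB1 at −1.38, DNAJC2 at −1.37 and HSPH1 at −1.27. The TE of DNAJC13 was 1.63 with DMSO and 0.437 with Silvestrol, that of DNAJB11 1.52 and 0.394, and that of HSPH1 4.79 and 1.62. The highest were DNAJB6 at 4.42, HSPA8 at 2.03 and HSPD1 at 1.59. DNAJB6, HSP90AB1 and HSPD1 have a pair of entries each, of which these z-scores use 1. From CPM summed over both entries the z-score was −0.51 for DNAJB6, 1.25 for HSP90AB1 and 0.09 for HSPD1, so that the sign turned for DNAJB6 and HSP90AB1 and none of the 3 was past the threshold. HSPA8 was then the 1 remaining gene above 1.5. With the RFs of passage 4 over the same mRNA libraries, 3 of 67 were below −1.5, against 6.74% of all genes, and 4 of 67 above 1.5, against 4.77%. Those below were DNAJB11 at −2.22, HSP90AB1 at −1.94 and DNAJC19 at −2.72, the last on 22 and 2 RF reads, and HSP90AB1 had 0.93 when summed over its entries. Those above were DNAJC18 at 1.96, DNAJC30 at 1.86, BAG4 at 1.68 and HSPA2 at 1.62. The value of HSPA2 rests on 11 and 8 RF reads, with DMSO and Silvestrol, and that of DNAJC18 on 48 and 47. DNAJB11 was past the threshold in both passages. DNAJC13 then had −1.44, HSPA8 1.05 and HSPD1 −1.16.

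edgeR's test of the TE change over the 6 libraries at 2 h called 0 chaperones reduced, against 0.019% of all genes, and 0 increased, against 0%. At an unadjusted p under 0.05 there were 9 reduced and 8 increased of 68, against 14.3% and 10.5% of all genes. DESeq2 called 4 reduced and 2 increased of 54 with an adjusted p, against 6.48% and 4.56% of all genes, and 1 of the 4 was HSP90AB1, whose reads moved between entries. HSPH1 had a log2 TE change of −1.27 (standard error 0.24, adjusted p = 0.084) and DNAJC13 one of −1.54 (standard error 0.31, adjusted p = 0.088) in edgeR. In the blocked edgeR fit, 14 of 68 were called reduced, against 22.4% of all genes, and 17 increased, against 22.6%. TE of HSPH1 and DNAJC13 was among the reduced, with adjusted p-values of 1.1e-04 and 8.7e-05 (edgeR, block), and so was that of HSPA4 (adjusted p = 0.0047). CCT3, CCT5 and TCP1 were among the increased, as were HSPA9, HSPB1, DNAJA3 and HSF1. Among the other J-domain genes, DNAJB4, DNAJB11, DNAJC2, DNAJC6, DNAJC10, DNAJC21 and DNAJC24 were called reduced and DNAJA2, DNAJB1, DNAJB6, DNAJB12, DNAJC18 and DNAJC30 increased in this fit. With the block and the offset for counted length 14 were called reduced and 13 increased of 67, against 22.9% and 22.6% of all genes, and HSPA9, TCP1 and DNAJB1 were no longer called. The mRNA libraries had no replicate, so every change in TE rests on 1 mRNA library per treatment. The spread in these TE tests came from the RF libraries alone, and their p-values leave out the spread of mRNA between cultures.

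With 1 entry per symbol, the mRNA of 4 chaperones was at least 2-fold higher with Silvestrol and that of 1, DNAJB6, was at least 2-fold lower, against 4.71% and 1.8% of all genes. With the reads of DNAJB6, HSP90AB1 and HSPD1 summed over their entries, 3 were 2-fold higher (DNAJC2, DNAJB4 and DNAJB11) and 0 lower. The median log2 mRNA change was 0.21, against 0.04 for all genes. DNAJC2, a J-domain protein bound to ribosomes, rose from 4.47 to 12.4 RPKM (620 and 865 reads, 2.77-fold), DNAJB4 from 5.02 to 10.5 (709 and 762 reads, 2.10-fold) and DNAJB11 from 22.3 to 46.3 (3093 and 3309 reads, 2.08-fold). The counted length of these 3 genes in the Silvestrol mRNA library was 0.974, 0.991 and 0.994 times that in the DMSO library, after scaling each library to its median. HSP90AB1, the constitutive HSP90, was listed at 107 and 369 RPKM, and its counted length was 5.31 times larger with Silvestrol. A change of counted length by more than 1.5 times was found for 1 of 68 chaperones, HSP90AB1, against 0.466% of all genes.

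DNAJB6 and HSP90AB1 had a pair of entries each in the table, and the reads moved between them. For DNAJB6, a J-domain protein that keeps polyglutamine proteins from aggregating, NM_058246 held 11977 mRNA reads in the DMSO library and 219 in the Silvestrol library, while AK124827 had 161 and 6230. Summed over both entries DNAJB6 had 241 and 260.1 mRNA CPM, a log2 change of 0.11, in place of the −4.91 of the RPKM of NM_058246. Its RFs lay in NM_058246 in passage 3, with 2696 and 784 reads, and in AK124827 in passage 4, with 659 and 164. Their summed CPM gave a log2 RF change of −0.66 in passage 3 and −0.73 in passage 4. For HSP90AB1, NM_007355 had 406 and 3848 mRNA reads and AY956764 had 11123 and 313. The sums were 229 and 167.8 CPM, a log2 change of −0.45, where the RPKM of NM_007355 gave 1.79. RFs of HSP90AB1 summed over the entries changed by 0.49 and 0.14 on the log2 scale in passages 3 and 4. From these sums the log2 TE change was −0.77 in passage 3 and −0.83 in passage 4 for DNAJB6, and 0.94 and 0.59 for HSP90AB1, while for HSPD1 with HSP60 it was −0.18 and −0.34. The z-scores of 4.42 for DNAJB6 and −1.38 for HSP90AB1, and their TE calls with the block, come from 1 entry and have the opposite sign. What assigned the reads to one entry or the other was not tested.

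**Figure D4:**
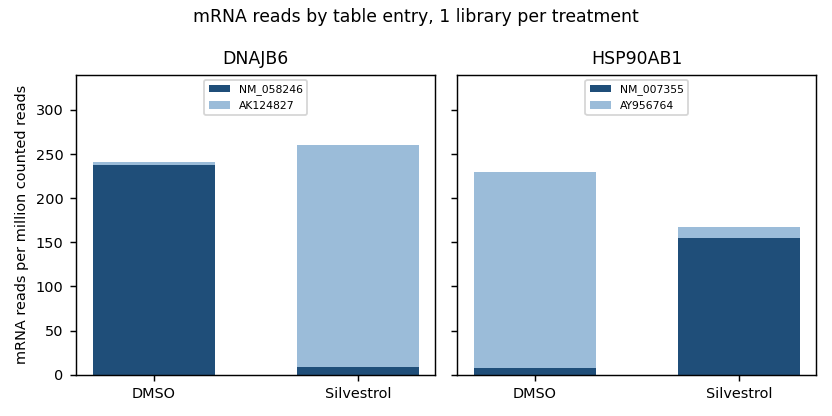
mRNA reads per 1000000 counted reads (CPM, y axis, from 0) with DMSO and Silvestrol for DNAJB6 and HSP90AB1, stacked by table entry, 1 library per treatment. The entry that holds nearly all reads changes between the libraries, while the sums are 241 and 260.1 for DNAJB6 and 229 and 167.8 for HSP90AB1.

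A list of 35 other genes of protein folding (HSP90 and HSP70 cochaperones, prefoldin, mitochondrial proteases and others) gave a background to the chaperones. Of 33 that passed the filter, edgeR called 1 lower, FKBP5, and 1 higher, PFDN5, against 7.73% and 2.22% of all genes, and the median log2 RF change was 0.25, against −0.01 over all genes. With the block, 5 were lower and 16 higher, where 28.1% and 25% of all genes were called. FKBP5, an immunophilin of the HSP90 complex, fell from 92.7 to 50.8 RPKM and, in passage 4, from 99.0 to 61.6, by 0.65 on the log2 scale (standard error 0.13, adjusted p = 0.044, edgeR). PFDN5, a subunit of the prefoldin that hands actin and tubulin to TRiC, rose from 463 to 808 and from 410.2 to 600.2 (log2 change 0.77, standard error 0.14, adjusted p = 0.037, edgeR). GRPEL1, the nucleotide exchange factor of HSPA9, had 273 and 331, then 206 and 286 (adjusted p = 0.16, and 5.1e-06 with the block, edgeR). STUB1, the ligase that marks chaperone clients for degradation, had 104.98 and 59.1, then 86.5 and 50.7, with an adjusted p of 0.085, and 5.2e-06 with the block (edgeR).

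INK128 left the footprints of most chaperones close to DMSO. There was 1 library per group, so no test was possible. The median log2 RF change of the 48 chaperones was −0.06, against 0.01 over all genes, with a range of −0.59 to 0.41. A log2 RF change of −0.5 or lower was found for 2 of 48, against 4.44% of all genes. These were HSPA8, with an RF FPKM of 1055 with DMSO and 701 with INK128, and DNAJB1, with 68.0 and 45.8. Among the TRiC subunits the level with DMSO was lowest for TCP1, at 110.4 against 112.7 with INK128, and highest for CCT7, at 224.03 against 214. HSP90AA1 had 527 and 530, HSPD1 255 and 227, HSPE1 199 and 209, and HSPH1 35.3 and 33.5. HSPA13 rose most among those that passed, from 14.2 to 18.8. HSF1 had 21.7 and 24.5, and BAG6 had 137 and 107. The 3 genes with the highest DMSO level, HSPA8, HSP90AB1 and HSP90AA1, thus had log2 changes of −0.59, −0.11 and 0.01.

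Total RNA FPKM was lower with INK128 for all 48 chaperones, with a median log2 change of −1.26, but the median of all 7102 genes was −1.17. HSPA8 RNA had 45.5 and 16.1 FPKM and HSP90AB1 38.9 and 15.9. A TE z-score below −1.5 was found for 0 of 48, against 5.58% of all genes, and one above 1.5 for 1 of 48, DNAJC8 at 1.501, against 1.75%. The lowest z-score was that of DNAJB1 at −1.03, and HSPA8 had −0.41. DNAJB4 did not pass the filter, having 0.166 and 0.180 FPKM in total RNA, and its RFs were 4.78 with DMSO and 7.87 with INK128. For the 5 genes called with Silvestrol, RF FPKM with DMSO and INK128 was 35.3 and 33.5 for HSPH1, 110.4 and 110.3 for HSPA9 and 56.0 and 49.6 for DNAJC7, and, below the filter for RNA, 5.19 and 6.09 for DNAJC13 and 15.7 and 14.99 for DNAJC15.

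**Figure D5:**
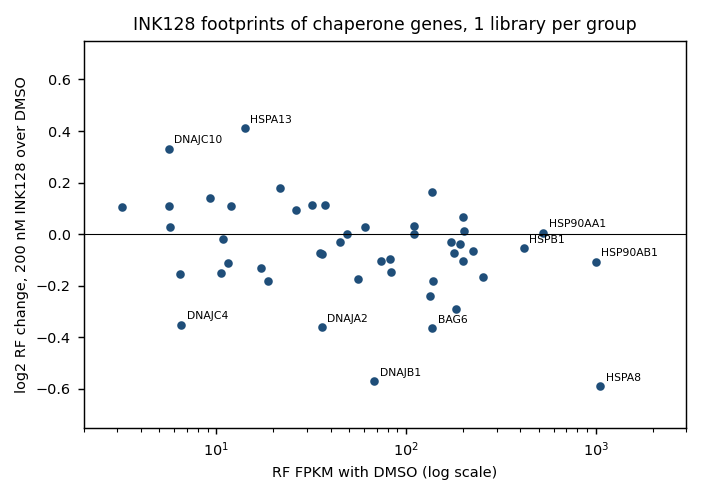
log2 RF change with 200 nM INK128 over DMSO (y axis) against the RF FPKM with DMSO (x axis, log scale) for the 48 chaperone genes that passed the filter, 1 library per group. HSPA8 and DNAJB1 are lowest, at −0.59 and −0.57, and HSPA13 is highest at 0.41.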

How the data were processed

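In the Silvestrol table the authors deposited read counts and RPKM for 9 libraries. They removed linkers and rRNA, aligned to hg19 and canonical transcripts with at most 2 mismatches, kept unique reads, and divided by countable positions. The submitters' processing notes name CASAVA 1.8.1 and Bowtie2. In the INK128 table the authors deposited FPKM for 4 libraries, with no read counts, and the program is not given in the sources used here. Columns of TE, its log2 change, z-scores and means hold the authors' comparisons and were not used. Each column of per-sample values was used (0 left out).

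The members, lists and rules were chosen with earlier results of these data known. Repeated lines were dropped, and for symbols with several entries that with the highest RF RPKM was used. Genes were kept if the 2 h RF and mRNA values of passage 3 were above 0 and their means reached 1 (RF) and 0.3 (mRNA), in RPKM or FPKM. edgeR 4.0.16 in R 4.3.3 compared RF counts (TMM, glmQLFit, glmQLFTest, 2 libraries against 2), and tested TE as the interaction of assay and treatment over 6 libraries. P-values were Benjamini-Hochberg adjusted over all genes at 0.05. DESeq2 1.42.0 was an alternative, and the block with an offset for counted length was added after seeing the data. The scripts were tested on simulated data. The TE z-score was log2[(RF/mRNA with drug)/(RF/mRNA with DMSO)] without pseudocount, minus its mean and over its SD. Cultures within a group differ by passage, and the labels give passages 3 and 4 to both treatments. The passage 3 to passage 4 log2 ratios of 10507 genes had r = 0.73 between treatments. The main fits did not use this pairing, and the fits with the passage as a block did. Unique stretches of 30 bases were counted in GRCh37 with GENCODE coding exons, as exact matches, for 85 genes; with mismatches fewer would be unique. Promoters came from RefSeq on GRCh38.p14. Named were all members past a test (with or without the block), z-score or 2-fold mRNA threshold, the 10 highest levels, TRiC, HSF, BAG, HSP70, HSP90 and HSP110 genes; others were named after their values were seen.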

Additional observations from a re-analysis of the deposited data

How the results depend on the processing

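Over 115 recomputed values, 70 stayed close to the reported one and 3 reversed; close means within 1.5 times for a count, within 1 SD of the 2 passages for a median, and the same sign and side of the threshold for a single gene. The reversed ones were the median log2 RF changes of the chaperones with CPM in place of RPKM, 0.10 in passage 3, 0.12 in passage 4 and 0.046 at 1 h. With the passage as a replicate block, edgeR called 11 members with fewer and 26 with more RFs, and 14 with reduced and 17 with increased TE. With the block and an offset for counted length together, chosen after seeing the data, these were 10, 22, 14 and 13. DESeq2 called 8 with more RFs, and 4 with reduced and 2 with increased TE. Testing every gene with a read gave 1 with reduced TE, HSP90AB1. Leaving out 1 library at a time gave 0 to 2 members with fewer RFs and 0 to 3 with more. The edgeR calls of DNAJC13 were kept in 8 of 10 alternatives, those of DNAJC15 in 7, HSPH1 in 6, HSPA9 in 5 and DNAJC7 in 5, and their signs in all 10. Without minimum RPKM, 1 member had a z-score below −1.5, and without minimum FPKM 2 had one with INK128. With the RFs of passage 4 the median z-score was −0.022. The median log2 mRNA change was 0.17 with a pseudocount of 0.5 and 0.25 with CPM, and that of INK128 RNA was −1.15 with a pseudocount of 0.1. The cause of these shifts was not tested. The passage 4 Silvestrol library had the fewest counted reads, 2652423. Single 1 h and INK128 libraries allow no test, nor do the single mRNA libraries by themselves. The TE tests that include the mRNA libraries take their spread from the RF libraries alone.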
